A study of Mus musculus with 3 samples.

Results

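The S100 calcium-binding proteins of skin were followed in a mouse array study of early hair and skin development. The list holds 10 genes, S100a8, S100a9, S100a3, S100a4, S100a6, S100a10, S100a11, S100a13, S100a14 and S100a16, and a gene counted as measured where at least 1 probe set was annotated to it alone. This gave 9 measured members with 12 probe sets, of 18193 genes and 34945 probe sets with a single gene symbol. S100a11 had only a probe set annotated to 3 genes, among them a pseudogene. The list sets the alarmins S100a8 and S100a9, danger signals released from cells, against S100 genes known to be made without stress. The genes were chosen by their differences between the uncv null and wild type arrays, so these differences are described and carry no p-value.

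Tissue was dorsal skin of 4-day-old female BALB/cA mice, with 1 biotin-labelled array per sample. The 2 uncv null samples (uncv -/-) and the 1 wild type sample (uncv +/+) came from sisters of uncv heterozygous parents. Uncv is a spontaneous mutation that affects the coat, later mapped to Rhbdf2, the gene of iRhom2, which controls shedding of growth factor and cytokine precursors. Nothing in the labels states that each null sample was a different animal beyond the numbers 1 and 2, so the spread between them may be partly technical. All values are RMA values on the log2 scale, as deposited. One log2 unit is a 2-fold difference, and differences are uncv null minus wild type.

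S100 proteins are small proteins with paired EF-hand calcium-binding loops that mostly work as dimers. Calcium opens a surface through which they bind annexins, myosin, enzymes or receptors. S100A8 and S100A9 form calprotectin, which withholds zinc and manganese from microbes and acts on TLR4 and RAGE once outside the cell. Neutrophils and monocytes hold it in large amounts, and keratinocytes make it when wounded or inflamed. Most other members are present in resting skin, S100a3 in the hair cuticle, S100a4 and S100a6 in fibroblasts and other motile or dividing cells, and S100a14 and S100a16 in epithelia.

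The promoters of S100a8 and S100a9 are shown because these genes differed together, with that of S100a6 as a member that differed little. Each covers 250 bases before and 50 after the annotated start, read on the gene's strand from RefSeq (build GRCm38.p6). They lie at chr3:90668821-90669120 (plus strand) for S100a8, chr3:90695672-90695971 (minus strand) for S100a9 and chr3:90612644-90612943 (plus strand) for S100a6. Capitals mark matches to the TATA box TATAAA and to the C/EBP pattern TTNNGNAA, on either strand.
S100a8: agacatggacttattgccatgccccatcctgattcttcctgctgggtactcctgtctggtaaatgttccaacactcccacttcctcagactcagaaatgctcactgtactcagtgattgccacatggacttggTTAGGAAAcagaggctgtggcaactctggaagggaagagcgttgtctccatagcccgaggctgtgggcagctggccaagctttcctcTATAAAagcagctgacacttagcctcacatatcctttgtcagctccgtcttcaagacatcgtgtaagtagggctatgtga
S100a9: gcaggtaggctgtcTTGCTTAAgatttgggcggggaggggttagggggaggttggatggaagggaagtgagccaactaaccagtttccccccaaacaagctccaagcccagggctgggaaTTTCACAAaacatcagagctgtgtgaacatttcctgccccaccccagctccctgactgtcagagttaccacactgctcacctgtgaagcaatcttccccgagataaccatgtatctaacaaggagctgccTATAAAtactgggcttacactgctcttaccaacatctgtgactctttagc
S100a6: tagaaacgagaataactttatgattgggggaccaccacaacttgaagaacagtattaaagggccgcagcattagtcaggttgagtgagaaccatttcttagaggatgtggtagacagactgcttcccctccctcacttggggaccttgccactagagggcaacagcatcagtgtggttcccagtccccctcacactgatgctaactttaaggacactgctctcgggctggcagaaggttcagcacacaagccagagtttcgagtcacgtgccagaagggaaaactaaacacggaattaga
The S100a8 promoter held 1 match to TATAAA, which began at base -30, and 1 match to the C/EBP pattern, TTAGGAAA at -117. The S100a9 promoter also held TATAAA, here beginning at the annotated start itself (base 1), and 2 matches to the C/EBP pattern, TTGCTTAA at -236 and TTTCACAA at -130. No marked match overlapped another, and the S100a6 promoter held neither pattern.

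RefSeq promoters were found for 8 of the 10 members, 12 promoters in all since S100a3 had 4 and S100a16 had 2. S100a10 and S100a14 had no entry. TATAAA occurred in 4 of the 12, those of S100a8, S100a9, S100a4 and 1 of S100a3, and in 13.6% of all 32851 mouse promoters of this length. The C/EBP pattern occurred in 4 of the 12, those of S100a8, S100a9 and 2 of S100a3, against 40.7% of all promoters. The AP-1 pattern TGANTCA was in 2 of the 12, those of S100a11 and 1 of S100a16, and in 7.81% of all promoters. The STAT pattern TTCNNNGAA was in 0 of the 12 and in 8.30% of all, and an NF-kB pattern of 10 letters, 5 of them free, in 6 of the 12 and in 50.8% of all. All patterns were searched on both strands. A match describes letters only.

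Both alarmin genes were higher in uncv null skin than in wild type skin, and by more than any other measured S100 member. S100a9, the larger calprotectin subunit, had values of 6.33 in uncv null 1 and 8.11 in uncv null 2, against 4.81 in wild type. S100a8, its partner, had 6.85 in uncv null 1 and 8.47 in uncv null 2, against 5.69 in wild type. Each rests on only 1 probe set, and that of S100a8 is of a type whose probes can match several transcripts. For both genes uncv null 2 was the high array, uncv null 1 lay between, and neither null array reached down to wild type.

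S100a9 differed from wild type by 1.52 (uncv null 1) and 3.30 (uncv null 2), or 2.86-fold and 9.86-fold. In S100a8 it was 1.15 and 2.78, or 2.22-fold and 6.87-fold. The mean differences were 2.41 ± 0.69 for S100a9 and 1.97 ± 0.64 for S100a8 (limma's moderated SE, 2 against 1 arrays). The uncv null arrays were themselves far apart. Their difference was 1.79 for S100a9 and 1.63 for S100a8, which exceeds the step from wild type to uncv null 1 in both genes. Ranked over 8456 tested genes by the mean difference, S100a9 was number 7 and S100a8 number 8 from the top. These ranks describe the values only, since the same contrast entered the choice of the genes.

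In each uncv null array both S100a8 and S100a9 stood at least 2-fold above wild type, and 0 of the other 7 measured members did so in either direction. Over all tested genes, 0.225% lay at least 2-fold higher in both null arrays and 0.296% at least 2-fold lower. Nothing is read from this pair of counts, since the same contrast entered the choice of the genes. By limma, 0% of the tested genes passed an adjusted p of 0.05 (0 of 8456, smallest adjusted p = 0.9996), and 245 had an unadjusted p under 0.05. A gene was tested where its brightest probe set had a mean of at least 5 over the 3 arrays, which all 9 measured members met. S100a9 met it through the null arrays, its wild type value being below 5.

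Spike-in controls were offset between the arrays. Over 18 hybridisation spike-in probe sets the mean lay above wild type by 0.70 (uncv null 1) and 0.43 (uncv null 2), while the median of all non-control probe sets was 3.70 and 3.65 in the null arrays and 3.70 in wild type. Among the spike-ins, BioB-3, meant to be added equally to every array, had 5.61 in uncv null 1 and 5.56 in uncv null 2, against 4.72 in wild type, close to the wild type level of S100a9. BioB-3 thus lay above wild type by 0.89 (uncv null 1) and 0.84 (uncv null 2). The mean over 3 control probe sets of 18S rRNA was 7.93 (uncv null 1) and 4.26 (uncv null 2), against 3.59 in wild type. Over the tested probe sets the null arrays correlated at 0.961 with each other, at 0.972 (uncv null 1) and 0.958 (uncv null 2) with wild type. For Actb, the signal at the 3' end minus that at the 5' end, a measure of RNA quality, came to 1.23 and 0.79 in the null arrays and to 0.66 in wild type. What part these offsets have in the values of single genes was not tested.

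**Figure D1:**
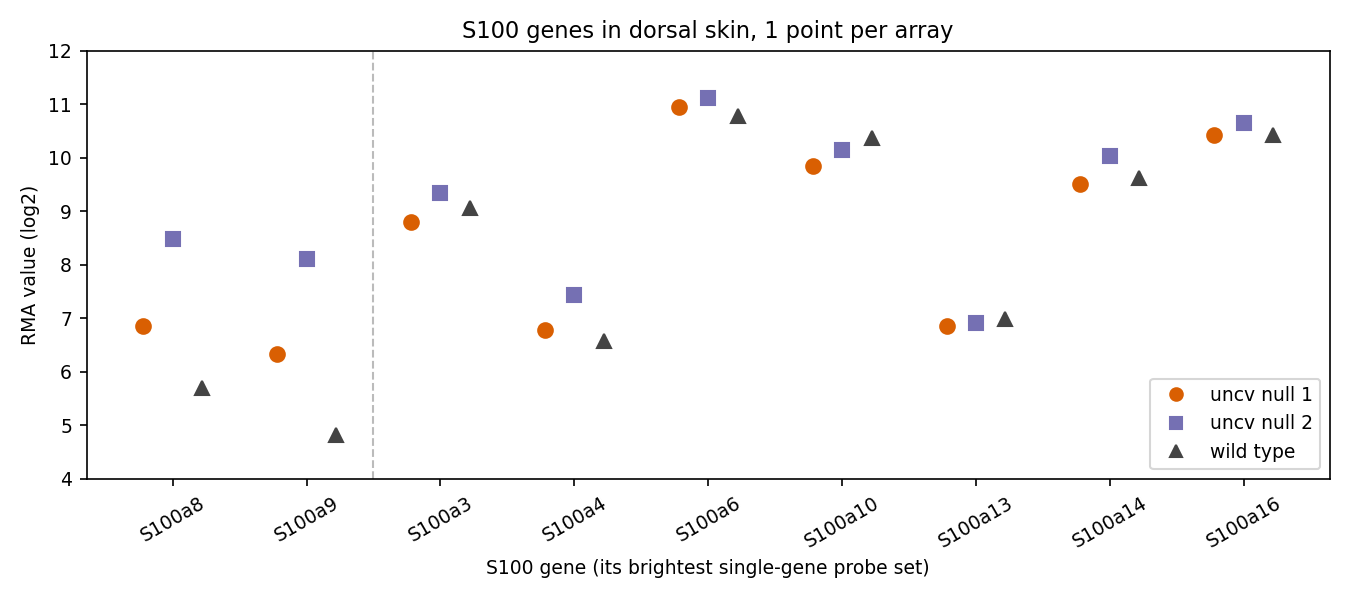
RMA values (log2, vertical axis) of the 9 measured S100 members in uncv null 1 (circles), uncv null 2 (squares) and wild type (triangles), 1 point per array, with S100a8 and S100a9 left of the dashed line. In S100a8 and S100a9 both null points lie above the wild type point, while in the other 7 members all 3 points lie within 1 log2 unit. Heights of different genes come from different probes and are not comparable.

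The other 7 measured members stayed within 1 log2 unit of wild type in each null array. Their differences ran between -0.54 and 0.21 in uncv null 1 and between -0.23 and 0.86 in uncv null 2, with medians of -0.12 and 0.27. The median of their mean differences was 0.11, beside 0.04 over all tested genes. The mean of the 2 alarmin differences exceeded the median of the other members by 1.46 in uncv null 1 and by 2.77 in uncv null 2. Of the 9 measured members, 4 were higher in both null arrays (38.8% of all tested genes were) and 2 were lower in both (26.4% of all). The remaining 3, S100a3, S100a14 and S100a16, lay on opposite sides of wild type in the null arrays.

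S100a4, also called metastasin, binds non-muscle myosin and is used as a fibroblast and migration marker. It had 6.78 in uncv null 1 and 7.43 in uncv null 2, against 6.58 in wild type, a mean difference of 0.53 ± 0.35. The higher value was again that of uncv null 2, and uncv null 1 differed from wild type by only 0.21. S100a6, or calcyclin, is a partner of annexins and of the ubiquitin ligase adaptor CACYBP. It had 10.94 in uncv null 1 and 11.11 in uncv null 2, against 10.77 in wild type. Both null arrays lay above the 1 wild type array, as in 38.8% of all tested genes, and the mean difference of 0.26 ± 0.26 was no larger than its error.

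S100a10, known as p11, pairs with annexin A2 at the plasma membrane and does not need calcium to do so. Its brightest probe set had 9.84 in uncv null 1 and 10.15 in uncv null 2, against 10.38 in wild type, a mean difference of -0.38 ± 0.28. Its other bright probe set, which carries probes that can match further transcripts, gave 9.26 in uncv null 1 and 8.73 in uncv null 2, against 9.08 in wild type. There the null arrays lay on either side of wild type, and the mean difference was -0.08 ± 0.32. The third probe set was below the level filter, with 3.64 and 3.55 in the null arrays and 3.85 in wild type. S100a10 had a mean difference below 0 on each of its 3 probe sets, but its probe sets disagreed on uncv null 1.

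S100a13 takes part in the release of FGF1 and interleukin 1 alpha from stressed cells. It had 6.85 in uncv null 1 and 6.91 in uncv null 2, against 6.99 in wild type. This member had the smallest spread between the null arrays of the 9 (SD 0.04, n = 2), and its mean difference of -0.11 ± 0.26 was smaller than the moderated error. S100a10 and S100a13 were the 2 members lower in both null arrays by their brightest probe set.

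S100a3 is a cysteine-rich protein of the hair cuticle that PADI3 citrullinates. It had 8.79 in uncv null 1 and 9.34 in uncv null 2, against 9.06 in wild type. Wild type lay midway between the null arrays, at differences of -0.27 and 0.27, and the mean difference was 0.00 ± 0.32. Markers of the hair cuticle and shaft lay on opposite sides of wild type in 4 of 7 measured genes, as 34.8% of all tested genes did, with a median of -0.24 in uncv null 1 and 0.20 in uncv null 2. Among these, the shaft keratin Krt86 was at -0.45 and 0.22. Krt32, a cuticle keratin, was at 0.24 and 0.61, and Padi3 at 0.14 and 0.62. In all of S100a3, Krt86, Krt32 and Padi3, uncv null 2 stood above uncv null 1, as in 55.6% of all tested genes. Hoxc13, on the same list, did not share this order, with 6.17 in uncv null 1 and 6.16 in uncv null 2.

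S100a14 and S100a16 are expressed in epithelia. S100a14 had 9.50 in uncv null 1 and 10.04 in uncv null 2, against 9.62 in wild type, a mean difference of 0.15 ± 0.32. S100a16 had 10.42 in uncv null 1 and 10.65 in uncv null 2, against 10.43 in wild type, a mean difference of 0.11 ± 0.27. Its second probe set, which also carries probes that can match other transcripts, had 9.73 and 9.94 in the null arrays and 9.51 in wild type, a mean difference of 0.33 ± 0.27. The second set placed both null arrays above wild type, where the brightest set placed uncv null 1 at the wild type level. S100a11, a partner of annexin A1, could not be separated from its pseudogene on this array. The probe set it shares had 11.16 in uncv null 1 and 11.27 in uncv null 2, against 11.19 in wild type.

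All 9 measured members had a higher value in uncv null 2 than in uncv null 1 by their brightest probe set, as did 55.6% of all tested genes. The step was 0.06 in S100a13 and 0.17 in S100a6, and reached 0.65 in S100a4 before the 1.63 and 1.79 of S100a8 and S100a9. The other 2 probe sets of S100a10 ran the opposite way, with the lower value in uncv null 2. The order of the null arrays was thus shared by the 9 brightest probe sets, while a step of over 1 log2 unit above wild type in both was seen in S100a8 and S100a9 alone among them.

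**Figure D2:**
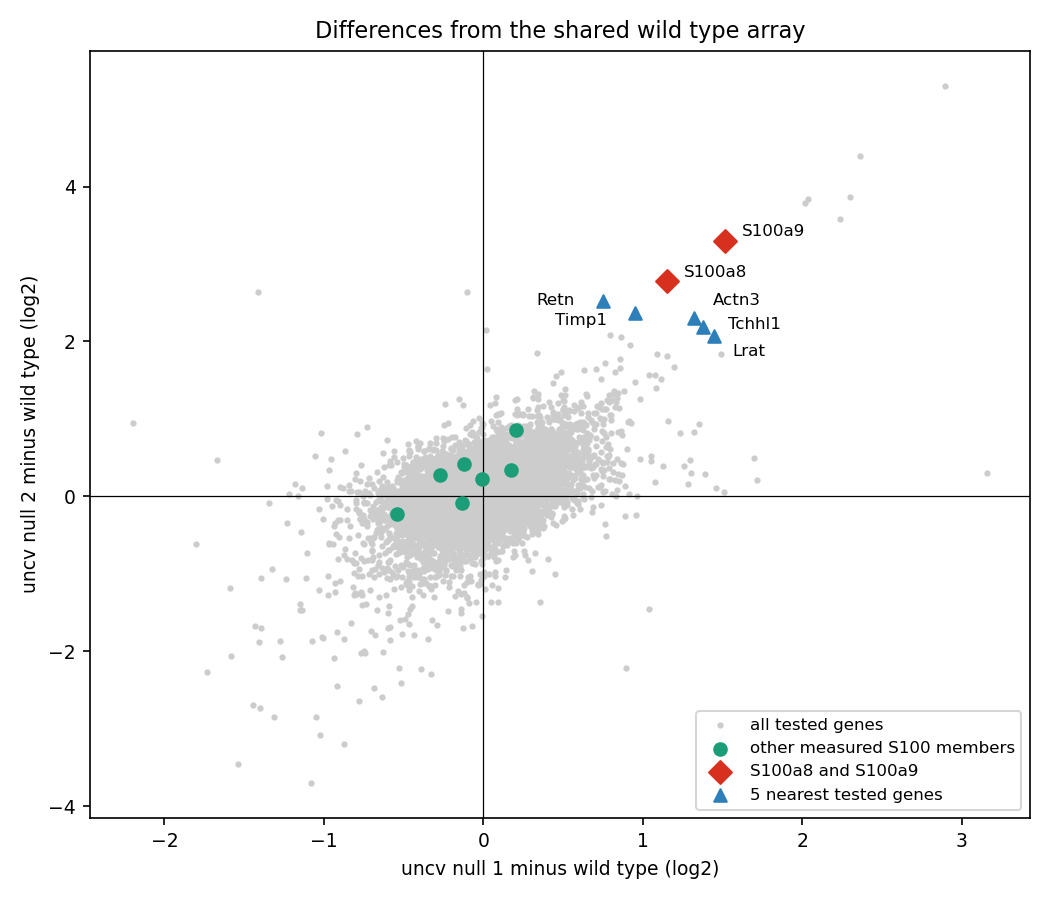
Differences from wild type on the log2 scale for 8456 tested genes (grey), in uncv null 1 (horizontal) and uncv null 2 (vertical), with S100a8 and S100a9 as diamonds, the other 7 measured members as large dots and the 5 genes nearest to the alarmin pair as triangles. The alarmin genes lie at 1.15 and 1.52 on the horizontal axis and at 2.78 and 3.30 on the vertical one, and the other members lie inside the grey cloud. Both axes share the wild type array, which by itself stretches the cloud along the diagonal.

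The genes whose pair of differences lay nearest to the mean of S100a8 and S100a9 (1.33 in uncv null 1 and 3.04 in uncv null 2) were ranked by distance in log2 units over these 3 arrays. S100a8 and S100a9 themselves lay 0.64 apart. The nearest other gene was Actn3, alpha-actinin of fast muscle fibres, at a distance of 0.73 with differences of 1.32 and 2.31. Timp1, an inhibitor of matrix metalloproteinases, followed at 0.77 with differences of 0.95 and 2.37. Retn, the adipokine resistin, lay at 0.78 with 0.75 and 2.53, and Tchhl1, a trichohyalin-like protein of the S100 fused type, at 0.85 with 1.38 and 2.19. Lrat, which esterifies retinol, was the fifth at 0.97 with 1.44 and 2.07, but its wild type value was near the median of 3.70 of all probe sets on that array. These 5 genes are known from muscle, stroma, fat and epithelium. Their larger difference in uncv null 2 follows from how they were picked, and Actn3 and Lrat met the level filter only through the null arrays, with wild type values of 4.78 and 3.88.

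Of 9 further S100 genes looked for, 5 had a single-gene probe set and 1 passed the level filter. This was S100a1, an S100 protein of heart and skeletal muscle, with 7.44 in uncv null 1 and 8.41 in uncv null 2, against 7.34 in wild type. Its second probe set had 4.79 and 5.40 in the null arrays and 4.93 in wild type, so that uncv null 1 was near wild type on both and uncv null 2 was the high array on both. S100b, the S100 protein of Schwann cells, melanocytes and fat, was dim, with 3.78 and 3.47 in the null arrays and 4.12 in wild type. S100a5, S100a7l2 and S100g had values of at most 2.94 in every array. S100a7a, the mouse counterpart of psoriasin, had no single-gene probe set here, nor had S100a2, S100p and S100z.

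The main receptors of released calprotectin were dim. Tlr4, the receptor of calprotectin, had 3.50 and 3.48 in the null arrays and 3.42 in wild type, and Ager, which encodes RAGE, had 3.68 and 3.45 in the null arrays and 3.66 in wild type. Both stood at about the median of all probe sets on each array, which was 3.70 in uncv null 1, 3.65 in uncv null 2 and 3.70 in wild type. Of the 8 receptor genes, 4 passed the level filter and 0 passed the test. Of these 4, 2 were higher and 2 lower in both null arrays, beside 38.8% and 26.4% of all tested genes. Myd88, the adaptor below TLR4, had 6.94 and 7.12 in the null arrays and 6.51 in wild type. Cd36, a fatty acid receptor that also takes up calprotectin-bound lipid, had mean difference 0.27 and Bsg, a receptor of S100A9, -0.27.

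Partners inside the cell were measured for 10 of 11 genes, of which 7 passed the level filter. Of these 7, 5 were higher and 1 lower in both null arrays, beside 38.8% and 26.4% of all tested genes. By limma 0 passed the test, and the median difference was 0.24, beside 0.04 over all tested genes. Anxa2, the partner of S100a10, had 11.44 and 11.41 in the null arrays and 11.23 in wild type. S100a10 itself was lower in both by its brightest probe set, while its other bright probe set had uncv null 1 above wild type. Anxa1, the partner of S100a11, had 11.18 and 11.40 in the null arrays and 10.93 in wild type. Myh9, the non-muscle myosin heavy chain that S100A4 binds, had 11.17 in uncv null 1 and 10.31 in uncv null 2, against 9.91 in wild type. Here uncv null 1 was the high array, the reverse of S100a4. Padi3 was described with S100a3 above.

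Inducers and other regulators of S100a8 and S100a9 were measured for 19 of 24 genes. This mixed list holds cytokines, receptors, transcription factors and signalling genes such as Socs3, and was not limited to inducers. Like all lists here, it was chosen with earlier results of these data known, so nothing is read from its counts. No cytokine on it passed the level filter. Of the 11 past the level filter, 9 were higher and 0 lower in both null arrays, beside 38.8% and 26.4% of all tested genes, 0 passed the test, and the median difference was 0.56, beside 0.04 over all tested genes. Osmr, a receptor subunit for oncostatin M and interleukin 31, had 5.69 and 6.17 in the null arrays and 5.30 in wild type. Stat3, the factor it activates, had 8.42 and 8.26 in the null arrays and 7.74 in wild type. Cebpd, a C/EBP factor of the acute phase, had 6.27 in uncv null 1 and 5.15 in uncv null 2, against 4.99 in wild type, so 1 null array carried its difference of 0.72 ± 0.48. The cytokine transcripts themselves were dim. Il1a, Il1b, Il6, Tnf, Il17a and Il24 were all below the level filter, and the highest value among them was 4.50, for Il1a in uncv null 2. Il17f, Il22, Il36a, Il36b and Il36g had no single-gene probe set here.

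Since neutrophils, monocytes and stressed keratinocytes can all hold calprotectin, markers of these and other skin cells were read from the same arrays. In whole skin, more cells of a type and more RNA per cell cannot be told apart. Of 14 neutrophil markers 11 were measured, and 0 of these passed the level filter. Mpo, myeloperoxidase, had 3.79 and 3.58 in the null arrays and 3.52 in wild type, Elane, neutrophil elastase, 3.82 and 3.60 against 3.86, and Prtn3 3.25 and 3.10 against 3.19. These granule enzymes stood close to the median of all probe sets, or below it, on every array. The summed level of the 11 genes, after conversion from log2, was 162 and 173 in the null arrays, against 179 in wild type. Without Ltf, left out after its values were seen, the sum of the other 10 was 136 and 163 in the null arrays, against 118 in wild type, so the direction of the sum rests on that gene.

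The largest differences in this list ran in both directions. Camp, cathelicidin, also made by keratinocytes, had 4.84 and 5.38 in the null arrays and 4.26 in wild type, and Ngp, neutrophilic granule protein, had 4.35 and 4.91 in the null arrays and 4.08 in wild type. Ltf, lactoferrin, which glands also secrete, went the other way with 4.70 and 3.44 in the null arrays and 5.93 in wild type. Over all 11, 6 were higher and 2 lower in both null arrays, Mpo and the collagenase gene Mmp8 among the higher ones by less than 0.3. Among the tested genes, which these dim markers are not, 38.8% were higher and 26.4% lower in both. The part of neutrophils in the alarmin values was not tested further. Ly6g, Retnlg and Fpr1 had no single-gene probe set here.

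All 10 markers of macrophages and monocytes were measured and 6 passed the level filter. Of these 6, 4 were higher and 0 lower in both null arrays, beside 38.8% and 26.4% of all tested genes. Their median difference was 0.32, beside 0.04 over all tested genes. Lyz2, lysozyme, had 6.72 and 7.52 in the null arrays and 6.47 in wild type, and Cd163, a macrophage scavenger receptor, 5.61 and 6.26 in the null arrays and 5.40 in wild type. Mrc1, the mannose receptor, had 8.40 and 8.38 in the null arrays and 7.89 in wild type. Csf1r, which defines the lineage, had 9.47 and 9.12 in the null arrays and 9.37 in wild type, so wild type lay between them. The summed level of the 10 genes was 1340 and 1312 in the null arrays, against 1162 in wild type, and its part in the alarmin values was not tested.

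Keratinocyte identity genes differed little. Of 10 markers, all past the level filter, 5 were higher and 1 was lower in both null arrays, with a median difference of 0.12. Over all tested genes the shares were 38.8% and 26.4%, and the median was 0.04. Krt14, the basal keratin, had 11.58 and 12.03 in the null arrays and 11.49 in wild type. Krt15, also basal and known from the bulge, was the lower gene at -0.42, and the desmosomal Dsp was at 0.33. Of the 4 stress keratins, all were higher in both null arrays. Of them 2, Krt6b and Krt16, were at least 2-fold higher in both, as 0.225% of all tested genes were. This list too was chosen with earlier results of these data known, so nothing is read from its counts. Krt6b had 9.06 and 11.10 in the null arrays and 6.70 in wild type, and Krt16 7.86 and 9.67 in the null arrays and 5.83 in wild type. Krt6a, whose sequence is close to that of Krt6b, had 9.55 and 10.55 in the null arrays and 8.92 in wild type. Krt17 had 10.25 and 10.81 in the null arrays and 10.21 in wild type, a mean difference of 0.32, close to the 0.31 of Krt14. Like S100a8 and S100a9, all 4 had their highest value in uncv null 2 and their lowest in wild type. This order is not particular to them, since S100a4, S100a6 and all 5 measured white fat markers had it too. Of all tested genes, 55.6% had uncv null 2 above uncv null 1.

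Other tissues in the samples also differed. For the counts that follow, 38.8% of all tested genes were higher and 26.4% lower in both null arrays, with a median difference of 0.04. All 8 skeletal muscle markers were lower in both null arrays, with a median difference of -0.87 and a summed level of 8780 and 7441 in the null arrays against 11947 in wild type. Myh3, embryonic myosin, had 8.89 and 6.57 in the null arrays and 9.76 in wild type, and the slow muscle troponin gene Tnni1 had 6.16 and 5.63 in the null arrays and 7.89 in wild type. Tnnc1, its partner, had a mean difference of -1.82. Actn3, the fast muscle gene named above and not on this list, went the other way, with 6.10 and 7.09 in the null arrays and 4.78 in wild type. All 5 measured markers of white fat were higher in both null arrays, with a median difference of 0.81 and a summed level of 3660 and 4565 against 2994 in wild type. Among them, Retn had a mean difference of 1.64, the lipid droplet gene Cidec 1.05 and the lipase gene Lipe 0.81. Of 9 fibroblast markers 7 were lower and 1, Thy1, was higher in both null arrays, with a median of -0.20 and a summed level of 23487 and 19062 against 25002 in wild type. Thy1 was at 0.50, the collagen gene Col1a1 at -0.40 and the proteoglycan Lum at -0.36. S100a4 and S100a6, known from fibroblasts, were higher in both. Of 4 measured Schwann cell markers, 2 were lower and 1 higher in both, and Mbp, myelin basic protein, had 7.88 and 7.29 in the null arrays and 9.16 in wild type. The myelin gene Pmp22 was at -0.66 and the neuregulin receptor Erbb3 at 0.32. By limma 0 genes of these lists passed, and the part of the samples' tissue make-up in the S100 values was not tested.

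**Figure D3:**
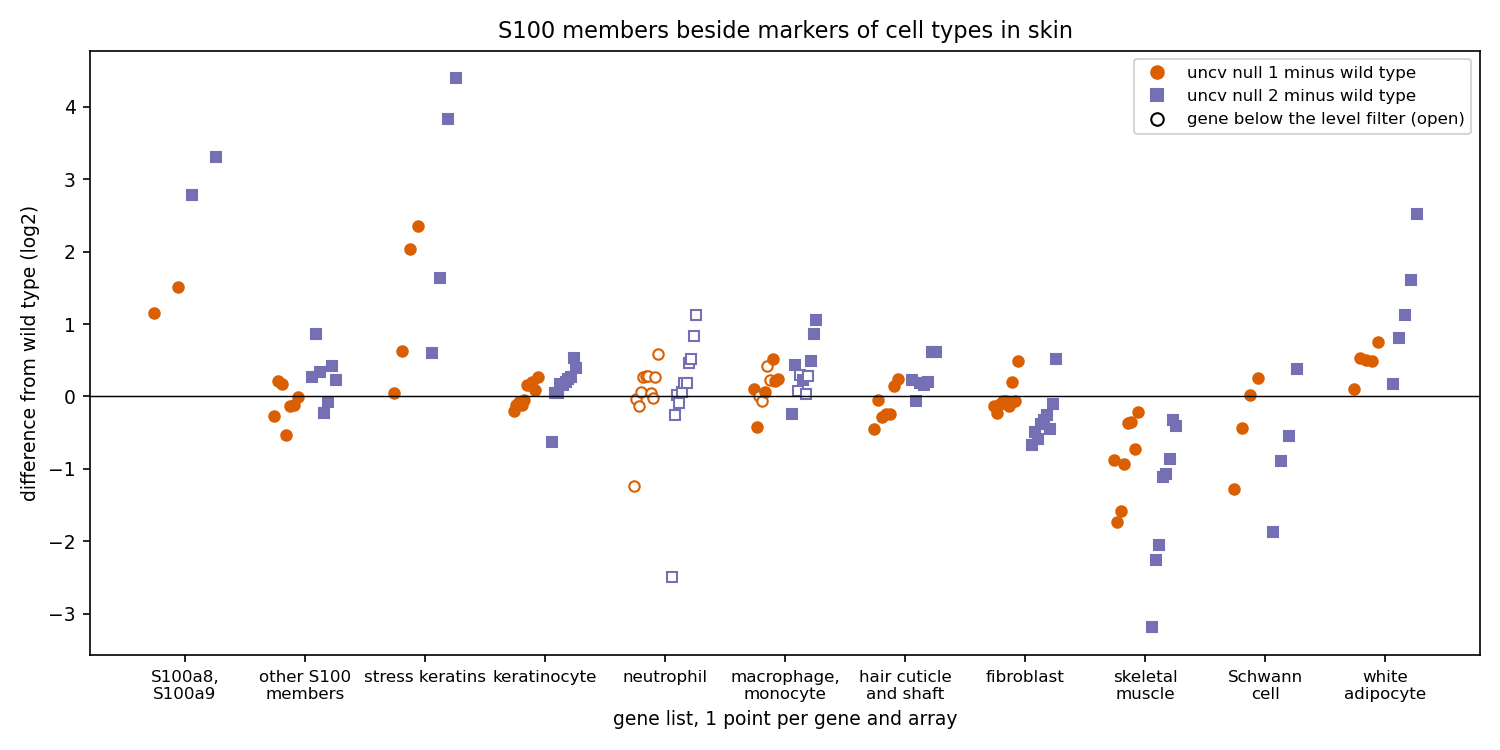
Differences from wild type (log2, vertical axis) in uncv null 1 (circles) and uncv null 2 (squares) for S100a8 and S100a9, the other 7 measured S100 members and 9 lists of cell type markers, 1 point per gene and array, with open symbols for genes below the level filter. The alarmin genes, Krt6b and Krt16 lie above 1 in both null arrays, all 8 muscle markers lie below 0, and all 11 neutrophil markers are open symbols.

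Most mouse S100 genes lie in 1 interval of chromosome 3 together with cornified envelope genes. In the RefSeq table (GRCm38.p6) the span between S100a1 and S100a10 held 70 protein-coding genes, 15 of them S100 genes. An unbroken run of 12 S100 genes opens it and ends with S100a8 and S100a9 as neighbours, numbers 11 and 12 in map order. S100a11 and S100a10 lie at the far end, 56 genes beyond S100a9. The gene nearest to S100a8 on its other side that was tested was S100a6, whose differences were 0.17 and 0.34.

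Of the 55 genes of the interval that are not S100 genes, 36 were measured and 26 passed the level filter. Of these 26, 18 were higher and 1 was lower in both null arrays (38.8% and 26.4% of all tested genes were), 0 passed the test, and the median difference was 0.20. Tchhl1, next to S100a11, had 7.50 and 8.31 in the null arrays and 6.12 in wild type and was the gene of the 26 at least 2-fold higher in both. Sprr1b, a small proline-rich envelope precursor, had 9.09 and 10.05 in the null arrays and 8.33 in wild type. Sprr2d, of the same family, had 5.55 and 5.79 in the null arrays and 4.79 in wild type. In the same interval, the major envelope genes Lor and Flg, which encode loricrin and filaggrin, had mean differences of -0.03 and -0.18. Genes with large and small differences thus lay side by side along the interval.

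**Figure D4:**
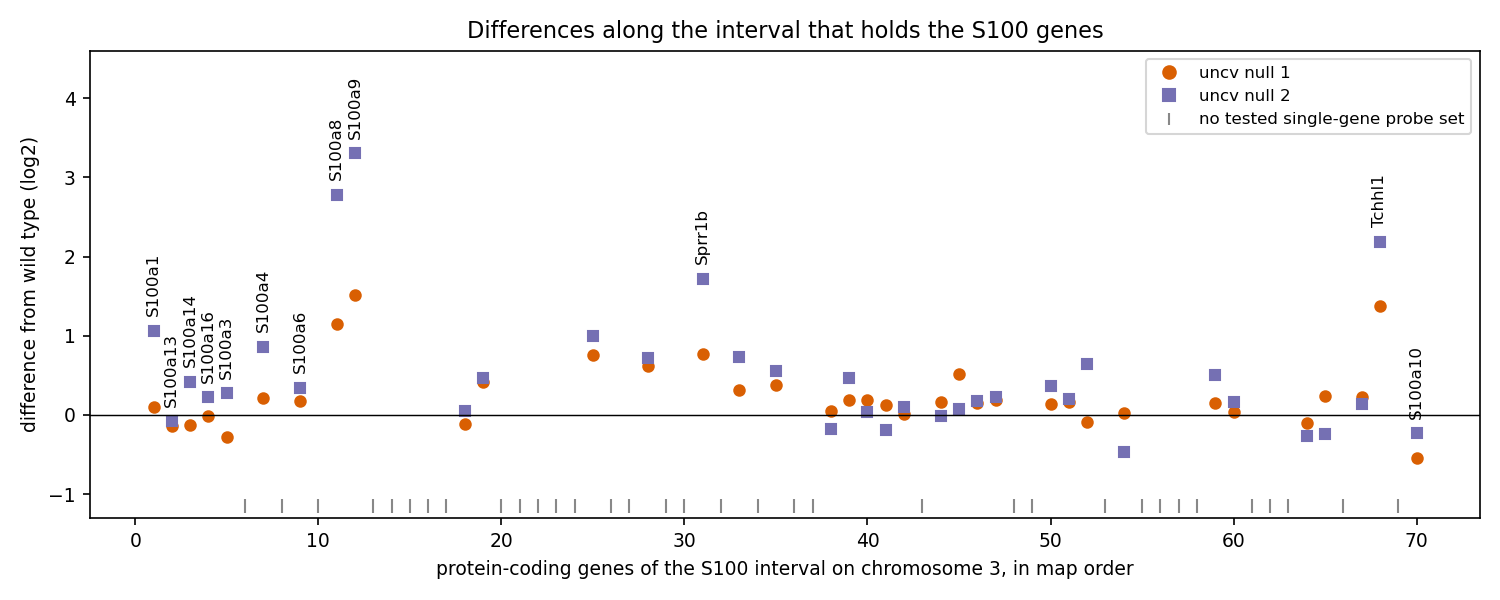
Differences from wild type (log2, vertical axis) in uncv null 1 (circles) and uncv null 2 (squares) for protein-coding genes in map order across the chromosome 3 interval that holds the S100 genes, where small vertical ticks mark genes with no tested single-gene probe set. S100a8 and S100a9 stand together at positions 11 and 12 with differences of 1.15 to 3.30, and Tchhl1 near the far end has 1.38 and 2.19. S100a10 at the last position is below 0 in both by its brightest probe set, the one drawn.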

How the data were processed

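Total RNA of dorsal skin was measured on 1-colour arrays, 2 uncv null and 1 wild type, grouped by sample title. The deposited values are log2 RMA values (background corrected, normalized between arrays, summarised per probe set), per the submitters' processing notes. Which program made them, and with which background model, is not given in the sources used here. The scale was checked on the values, 1.96 to 13.1. RMA hides any shift of all transcripts together. No scanner files were used here, so signal over background is unknown, and the number of arrays limits the precision.

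Of 45101 probe sets, 64 controls were set apart. Names come from the platform annotation, and a gene is represented by its brightest single-gene probe set. The 13559 probe sets with a mean of at least 5 were fitted with limma 3.58.1 in R 4.3.3 (lmFit, eBayes, Benjamini-Hochberg over all of them, threshold 0.05). Residual degrees of freedom were 1 per probe set, with 4.75 prior ones, because wild type has a single array, which is taken to vary as the null arrays do. The fit was also run on simulated data with the same spread in every array, which checks the code and not how the test performs on these arrays.

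The members and all lists were chosen with earlier results of these data known. Named genes are all S100 genes, the 3 members of each list with the largest mean difference, and the 5 genes nearest to S100a8 and S100a9; others named were chosen after their values were seen. Alternatives were other level filters, averaging all probe sets of a gene, median centring, quantile normalization, an intensity trend, other thresholds and leaving out each null array.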

Additional observations from a re-analysis of the deposited data

Results flagged for a closer look

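The control probe sets for 18S ribosomal RNA lie outside the comparisons and stood above the wild type array in uncv null 1, with a mean of 7.93 over 3 probe sets in that array and 4.26 in uncv null 2, against 3.59 in wild type. S100a8 and S100a9 differed from wild type by more in uncv null 2, at 2.78 and 3.30, than in uncv null 1, at 1.15 and 1.52. Any link between the 18S values and those of S100a8 and S100a9 was not tested.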

How the results depend on the processing

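S100a8 and S100a9 stayed above wild type by at least 2-fold with median centring and quantile normalization. Having no filter or taking the mean of probe sets could not change their values, since each has 1 probe set, which passes the filter. Leaving out 1 null array only returns the difference of the other, already at least 2-fold in both genes. With a minimum mean of 7, 1 member (S100a8) was left past the 2-fold limit, because S100a9 has a lower mean, and 11 genes in all against 44. A 1.5-fold limit took in 240 genes. Without 1 null array, 80 to 294 genes passed the limit, and no test could be had. By limma 0 genes passed under every alternative that gave a test, an adjusted p of 0.1 included. Under quantile normalization S100a13 was at -0.15 instead of -0.11; the cause was not tested. Without uncv null 1 the gap between the alarmins and the other members was 2.77, and without uncv null 2 it was 1.46. The median of the other members was 0.27 without uncv null 1 and -0.12 without uncv null 2, so it has no settled direction, and neither have S100a3, S100a14 and S100a16. S100a3 also turned sign with median centring, at 0.02. With the mean of probe sets S100a10 was at -0.24 and S100a16 at 0.22. No paired analysis was possible because there was only 1 wild type sample. Signal over background was not available, so small differences of genes near the median of the array, such as most neutrophil markers and the cytokines, are uncertain.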
